A study of Solanum lycopersicum with 30 samples.

Results

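Catalase and dehydroascorbate reductase were followed through 3 genes, CAT1, DHAR and DHAR2, on 30 2-colour arrays of tomato leaf RNA. Every clone whose only gene symbol in the platform annotation was one of these was taken, which gave 8 of the 12590 clones with a value: 3 clones of CAT1, 3 of DHAR and 2 of DHAR2. They make up 3 of the 426 genes that the arrays measured under a single symbol. The spots of a clone were averaged, and the clones of a gene were averaged after each had been examined on its own.

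The leaves came from tomato plants (Solanum lycopersicum) grown for 28 to 35 days in a chamber (25 °C, days of 16 h and nights of 8 h) and treated with leaf sap carrying tobacco mosaic virus (TMV) or with mock leaf sap. There were 3 genotypes: sun1-1, an enhanced-susceptibility mutant that still carries N; the resistant genotype N; and the susceptible genotype n. N is a resistance gene that recognises TMV. Leaves were taken after 3, 9 and 27 h, with 3 arrays in each sun1-1 group, 4 in each resistant group and 3 in each susceptible group, and each RNA sample came from 1 plant. Each array set 25 µg of labelled RNA of a TMV-treated plant (Cy3) against that of a mock-treated plant (Cy5) of the same genotype and, by title, the same time. For resistant replicate 4 at 9 h and at 27 h the TMV-channel protocol instead names 3 h and 9 h, so that matched times are uncertain there.

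Catalase splits hydrogen peroxide into water and oxygen in peroxisomes. In leaves it removes the peroxide made when glycolate is oxidised in photorespiration, and tobacco catalase has been described as a protein that binds salicylic acid, a defence hormone. Dehydroascorbate reductase belongs to the ascorbate-glutathione cycle: it turns dehydroascorbate back into ascorbate with electrons from glutathione, so that ascorbate can again serve ascorbate peroxidase against peroxide. Resistance through N includes an early burst of reactive oxygen and later the death of cells around the site of infection. Symbols are those of the platform. None of the 430 gene identifiers behind its symbols was found in the tomato gene table (0 matched), where DHAR2 stands as a symbol, DHAR as another name of DHAR1, and CAT1 not at all, so that which tomato gene each clone measures was not established. A spotted cDNA can also bind RNA of close relatives of its gene.

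All values are log2 ratios of the 2 channels with the sign as deposited. Nothing in the labels tells the numerator channel, titles name mock before TMV, and the dyes were never exchanged. A positive value can therefore mean more signal after TMV or more after mock treatment, and any dye effect of a spot is part of it. Such an effect cancels in a difference between genotypes. Of 435 pairs of arrays 20 had a correlation below -0.3 over the features they shared and 45 had one above 0.3, with a range of -0.571 to 0.554. Replicates disagreed too: of the 36 pairs within a group, 14 had a correlation below 0. Turning the sign of all arrays would turn every mean and every difference below and would leave each SD, p and correlation between genes as it is. Because the leaf samples are mixtures of cell types, fewer cells of a type and less RNA per cell cannot be told apart. A ratio holds no level, so the labelled tissue could not be checked against markers. The only leaf marker among 12 listed that was a single symbol in the platform annotation was PSBR, a photosystem II protein. None of 3 root or tuber markers was there (0 found). The annotation covers 905 of the 15360 clone pairs, so the other markers may be on the arrays without a symbol.

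The arrays differed in quality. They gave values for 2173 to 9511 clones (median 6979.5), the SD of all log2 ratios of an array ran between 0.22 and 1.35 (median 0.36), and the share of clones at 2-fold or more ran between 0.23% and 40.1% (median 1.57%). The widest array was sun1-1 3 h replicate 3, and the next widest was sun1-1 27 h replicate 1, with an SD of 0.69 and 12.5% of clones at 2-fold or more. For sun1-1 27 h replicate 2 the deposited column sat 1 row off and was moved back. For the sun1-1 results at 3 and 27 h that had an unadjusted p under 0.05, the values without these arrays, or with the column as deposited, stand beside them.

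The gene averages stayed near 0. Of 90 values, 3 genes on 30 arrays, 1 reached 2-fold, DHAR2 at 1.05 in susceptible leaves at 27 h. CAT1 ranged between -0.72 and 0.88, DHAR between -0.57 and 0.72 and DHAR2 between -0.99 and 1.05. Their SDs over the 30 arrays were 0.33, 0.34 and 0.38, against a median of 0.41 for the 125 genes with a value on every array, among which DHAR2 ranked 70th, DHAR 86th and CAT1 87th from the most variable. Single clones spread more, and 7 of their 182 values reached 2-fold. Among 1534 clones with a value on 29 or 30 arrays, CAT1 clone B (SD 0.64) exceeded 89.3% in SD. DHAR clone A (SD 0.57, widest array included) exceeded 82.1%. CAT1 clone A and the DHAR2 clones exceeded 49.4% to 57.4%. CAT1 was positive on 14 arrays and negative on 16, DHAR positive on 16 and negative on 14, and DHAR2 positive on 13 and negative on 17. Over the mean of the 9 groups CAT1 stood at 0.027 (95% interval -0.093 to 0.15), DHAR at 0.032 (-0.11 to 0.17) and DHAR2 at -0.013 (-0.14 to 0.11).

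**Figure D1:**
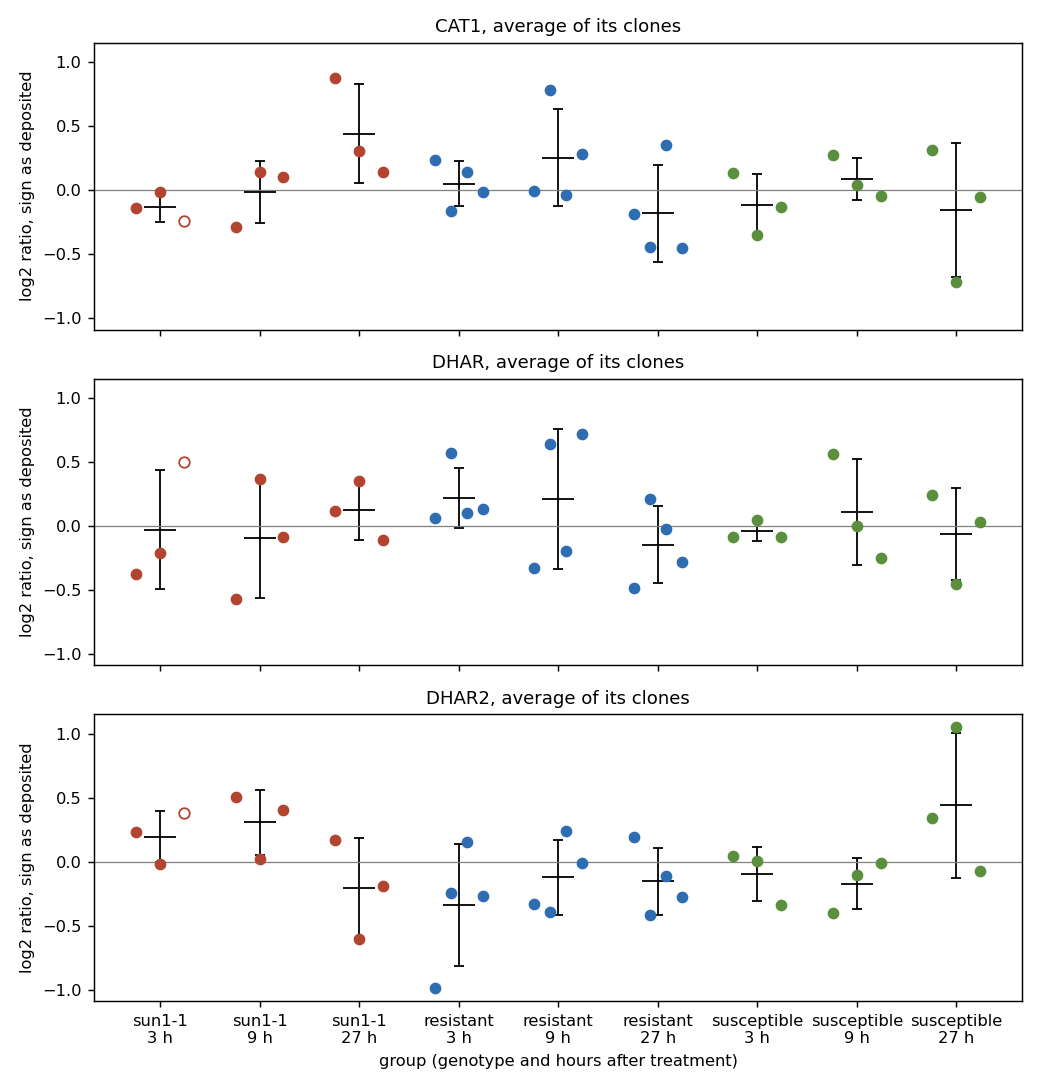
Gene averages of CAT1, DHAR and DHAR2 (log2 ratio, sign as deposited, vertical axis) in the 9 groups of genotype and time (horizontal axis). Each point is 1 array, in the order of the replicate numbers, horizontal bars are group means, error bars are SDs, and the open circle is sun1-1 3 h replicate 3. The 27 group means lie between -0.34 and 0.44, and most groups hold arrays on either side of 0.

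No member passed limma's test at a Benjamini-Hochberg adjusted p under 0.05 in any of 29 comparisons: TMV against mock in each group, at each time over genotypes and over all groups, one genotype against another at each time and over the times, the change over time in each genotype, and any difference among groups. Of the 87 member results 0 were called, limma's smallest adjusted p was 0.341, and 7 (8.05%) were under 0.05 before adjustment. Across all 4142 to 7889 features tested the share called was 0% in 27 of the 29 comparisons, 0.0933% for the mean of the 3 genotypes at 3 h and 0.0724% for the mean of the 9 groups. An unadjusted p under 0.05 was found for 1.56% to 16.9% of features by comparison, and for 6.49% over all comparisons, so the members' share lies near that of the whole table. The 7 results, none of which is called, concern CAT1 in sun1-1 leaves at 27 h and DHAR2 mainly in susceptible leaves at 27 h, and are described below with their arrays. The moderated F test for any difference among the 9 groups gave an adjusted p of 0.811 for CAT1, 0.950 for DHAR and 0.785 for DHAR2 by limma.

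CAT1, the catalase, had its highest group mean in sun1-1 leaves at 27 h. In sun1-1 leaves it read -0.14, -0.015 and -0.24 on the 3 arrays at 3 h, -0.29, 0.14 and 0.10 at 9 h, and 0.88, 0.30 and 0.14 at 27 h. In resistant leaves it read 0.24, -0.16, 0.14 and -0.012 at 3 h, -0.005, 0.78, -0.034 and 0.28 at 9 h, and -0.18, -0.44, 0.36 and -0.45 at 27 h. In susceptible leaves it read 0.14, -0.35 and -0.13 at 3 h, 0.27, 0.04 and -0.041 at 9 h, and 0.31, -0.72 and -0.055 at 27 h. All 3 sun1-1 arrays at 3 h were negative and all 3 at 27 h positive, while 3 of the 4 resistant arrays at 27 h were negative and the susceptible arrays at 27 h lay on either side of 0.

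The means of CAT1 lay in the order sun1-1 27 h (0.44 ± 0.39), resistant 9 h (0.26 ± 0.38), susceptible 9 h (0.091 ± 0.16), resistant 3 h (0.051 ± 0.18), sun1-1 9 h (-0.014 ± 0.24), susceptible 3 h (-0.11 ± 0.24), sun1-1 3 h (-0.13 ± 0.11), susceptible 27 h (-0.15 ± 0.52) and resistant 27 h (-0.18 ± 0.38), with SDs over 3 arrays, or 4 in the resistant groups. No 2 neighbours in this order were farther apart than the larger of their SDs. The top mean corresponds to 1.36-fold in the deposited direction, with a 95% interval of 0.06 to 0.82 on the log2 scale, and limma's p was 0.0240 unadjusted and 0.464 adjusted. In that group 9.09% of all features had an unadjusted p under 0.05. It was 0.22 without replicate 1, the array of the second widest spread, 0.24 with the column of replicate 2 as deposited and 0.26 with array quality weights.

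At 27 h the CAT1 ratio was 0.62 higher in sun1-1 than in resistant leaves (95% interval 0.12 to 1.12; limma's adjusted p 0.909, unadjusted 0.0170). The groups overlapped, since resistant replicate 3 at 0.36 lay above sun1-1 replicates 2 and 3. The difference was 0.40 without sun1-1 27 h replicate 1, 0.42 with the column of sun1-1 27 h replicate 2 as deposited, 0.69 without that array, 0.80 without resistant 27 h replicate 3 and 0.32 with array quality weights. Against susceptible leaves the sun1-1 ratio was 0.59 higher (0.06 to 1.13; limma's adjusted p 0.358, unadjusted 0.0304). This difference was 0.31 without susceptible 27 h replicate 2, 0.38 without sun1-1 27 h replicate 1 and 0.39 with the column of sun1-1 27 h replicate 2 as deposited. These groups overlapped as well, with susceptible replicate 1 at 0.31 above sun1-1 replicates 2 and 3. Resistant minus susceptible at 27 h was -0.025 (-0.52 to 0.47), and at 3 and 9 h the 6 genotype differences of CAT1 lay between -0.27 and 0.16. The change of CAT1 over the 3 times within sun1-1 had an adjusted p of 0.686 by limma's moderated F test, with 0.758 in resistant and 0.990 in susceptible leaves.

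Of the 3 clones of CAT1, A and B moved together and C did not. Clone A (spots 137140 and 138999) had a value on 30 arrays, between -0.61 and 0.97, and clone B (spots 152782 and 153626) on 29 arrays, between -1.77 and 1.96. These went together with Spearman's rho 0.83 over 29 arrays, and had the same sign on 22 of them. Clone C (spots 154260 and 155104) had a value on 27 arrays, between -0.43 and 0.97, and followed neither: rho was -0.16 with clone A and -0.18 with clone B, with the same sign on 10 and 9 of 27 arrays. Over the 587 pairs of clones of 1 symbol that shared at least 20 arrays the median rho was 0.76 (quartiles 0.47 and 0.87), and 51 of them (8.69%) were negative. The 2 spots within each clone correlated at r = 0.850 for A, 0.954 for B and 0.643 for C. These correlations describe arrays that share their spotting and the 2 dyes, and carry no test.

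Clone B held the 2 CAT1 values past 2-fold. It read 1.96 in resistant leaves at 9 h replicate 2, where clone A read 0.42 and clone C -0.036, and -1.77 in susceptible leaves at 27 h replicate 2, where clone A read -0.54 and clone C 0.15. Its paired spots were close to each other on both arrays, at 1.95 and 1.98 on the first and at -1.89 and -1.64 on the second. Clone C varied least between arrays in resistant leaves, with 0.21 to 0.26 on the 4 arrays at 3 h (mean 0.24 ± 0.020) and -0.17 to -0.036 on the 3 arrays with a value at 9 h (-0.12 ± 0.071). Its paired spots were less close at 3 h, with 0.029 and 0.43 on replicate 1 and 0.098 and 0.37 on replicate 2. Replicates 3 and 4 there each gave a value from a single spot. On sun1-1 27 h replicate 1, clones A, B and C read 0.97, 0.68 and 0.97, and this was the highest value of clone A and of clone C on any array. Taking CAT1 from clones A and B alone, which was decided on once these values were known, gave 0.47 ± 0.31 in sun1-1, -0.33 ± 0.54 in resistant and -0.23 ± 0.86 in susceptible leaves at 27 h (SD, n = 3, 4 and 3). The difference of sun1-1 from resistant leaves was then 0.80, still not called. A further clone carried CAT1 beside a second symbol and was left out by the rule. It had a value on 24 arrays, between -0.71 and 1.16 with a median of -0.068.

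**Figure D2:**
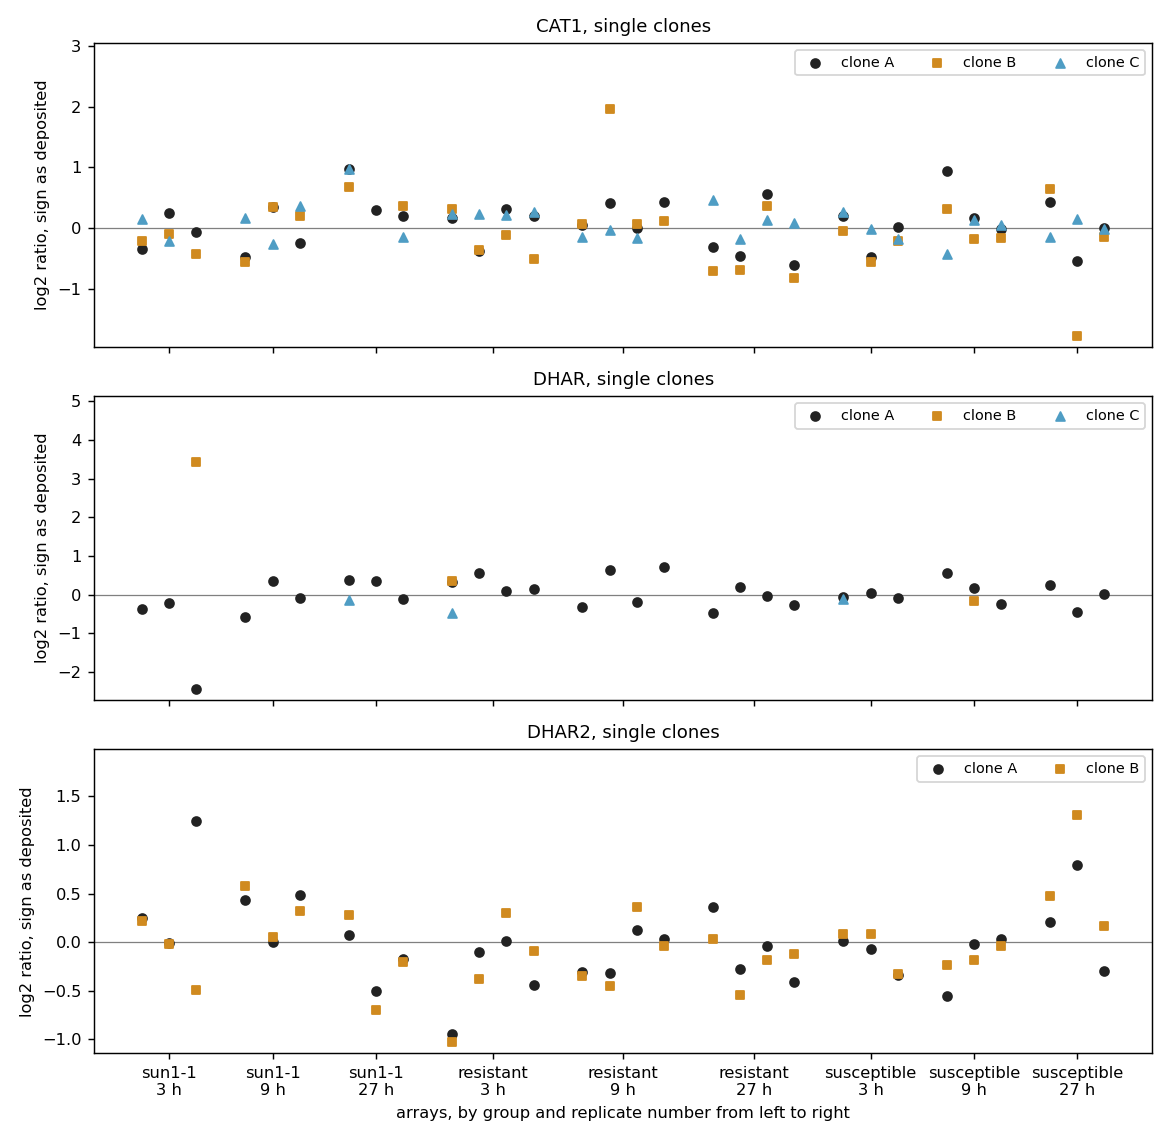
Log2 ratio (sign as deposited, vertical axis, a different scale in each panel) of each clone of CAT1, DHAR and DHAR2 on the 30 arrays, which run along the horizontal axis by group and replicate number. Circles are clone A, squares clone B and triangles clone C. DHAR clone A at -2.43 and clone B at 3.42 lie on the same array, sun1-1 3 h replicate 3.

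DHAR, a dehydroascorbate reductase, had group means within 0.22 of 0 and rested almost wholly on 1 clone. Clone A (spots 146279 and 147123) had a value on 30 arrays, clone B (spots 131759 and 133618) on 3 and clone C (spots 151695 and 152539) on 3. Clone B read 3.42 on sun1-1 3 h replicate 3, 0.36 on resistant 3 h replicate 1 and -0.17 on susceptible 9 h replicate 2, each time from a single spot. Clone C read -0.13, -0.47 and -0.12 on sun1-1 27 h, resistant 3 h and susceptible 3 h, replicate 1 in each. On the other 25 arrays the DHAR average is therefore clone A alone.

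In sun1-1 leaves DHAR read -0.38, -0.21 and 0.50 at 3 h, -0.57, 0.37 and -0.082 at 9 h, and 0.12, 0.35 and -0.10 at 27 h. In resistant leaves it read 0.067, 0.57, 0.10 and 0.13 at 3 h, -0.33, 0.64, -0.19 and 0.72 at 9 h, and -0.48, 0.21, -0.022 and -0.28 at 27 h. In susceptible leaves it read -0.088, 0.049 and -0.084 at 3 h, 0.56, 0.0045 and -0.25 at 9 h, and 0.24, -0.45 and 0.028 at 27 h. The 4 resistant arrays at 3 h were the only group with all arrays on 1 side of 0, and the widest group was resistant 9 h, where replicates 2 and 4 were positive and replicates 1 and 3 negative. The tightest was susceptible 3 h.

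Ordered by mean, DHAR stood at 0.22 ± 0.24 in resistant 3 h, 0.21 ± 0.55 in resistant 9 h, 0.12 ± 0.23 in sun1-1 27 h, 0.11 ± 0.41 in susceptible 9 h, -0.029 ± 0.46 in sun1-1 3 h, -0.041 ± 0.078 in susceptible 3 h, -0.06 ± 0.36 in susceptible 27 h, -0.10 ± 0.47 in sun1-1 9 h and -0.14 ± 0.30 in resistant 27 h. Again no neighbours were farther apart than the larger of their SDs. None of its 29 results had an unadjusted p under 0.05.

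The DHAR value of sun1-1 3 h replicate 3, the widest array, was the mean of clone A at -2.43 and clone B at 3.42. The paired spots of clone A read -3.64 and -1.22 there, so that neither clones nor spots were close. The other sun1-1 arrays at 3 h read -0.38 and -0.21. With clone A alone the group averaged -1.01 ± 1.24 (SD, n = 3), and without this array -0.29 (n = 2, both negative). The 3 h difference of sun1-1 from resistant leaves moved accordingly, at -0.25 (95% interval -0.82 to 0.32; limma's adjusted p 0.952) with the clones averaged, -0.51 without the array and -1.29 with clone A alone. Without the array the 2 sun1-1 values lay below all 4 resistant and all 3 susceptible ones. Groups that did not overlap were then found for 21.9% of 5339 features between sun1-1 and resistant leaves and for 22.4% of 6445 between sun1-1 and susceptible leaves, so that such a gap is common with 2 arrays. With all arrays kept, the resistant arrays at 3 h, 0.067 to 0.57, lay above the susceptible ones, -0.088 to 0.049, a gap shared by 10.8% of 5657 features, and limma gave this difference of 0.26 an adjusted p of 1.

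DHAR2, the other dehydroascorbate reductase, had its highest mean in susceptible leaves at 27 h and its lowest in resistant leaves at 3 h. In sun1-1 leaves it read 0.23, -0.015 and 0.38 at 3 h, 0.51, 0.025 and 0.40 at 9 h, and 0.17, -0.60 and -0.19 at 27 h. In resistant leaves it read -0.99, -0.24, 0.16 and -0.27 at 3 h, -0.33, -0.39, 0.24 and -0.0055 at 9 h, and 0.19, -0.41, -0.11 and -0.27 at 27 h. In susceptible leaves it read 0.043, 0.007 and -0.34 at 3 h, -0.40, -0.10 and -0.0065 at 9 h, and 0.34, 1.05 and -0.067 at 27 h. The sun1-1 arrays were mostly positive at 3 and 9 h and mostly negative at 27 h, 9 of the 12 resistant arrays were negative, and 2 susceptible arrays at 27 h stood above every other array of that genotype.

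Ordered by mean, DHAR2 stood at 0.44 ± 0.57 in susceptible 27 h, 0.31 ± 0.25 in sun1-1 9 h, 0.20 ± 0.20 in sun1-1 3 h, -0.10 ± 0.21 in susceptible 3 h, -0.12 ± 0.29 in resistant 9 h, -0.15 ± 0.26 in resistant 27 h, -0.17 ± 0.20 in susceptible 9 h, -0.20 ± 0.39 in sun1-1 27 h and -0.34 ± 0.48 in resistant 3 h. Only the step between sun1-1 3 h and susceptible 3 h, 0.29, was larger than the SDs of its groups, and limma gave it an adjusted p of 0.998 (95% interval -0.27 to 0.86). Without sun1-1 3 h replicate 3 the sun1-1 mean at 3 h was 0.11, and the step was then no longer larger than the SD of susceptible 3 h.

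At 27 h the DHAR2 ratio was 0.65 lower in sun1-1 than in susceptible leaves (difference -0.65, 95% interval -1.21 to -0.08; limma's adjusted p 0.341, unadjusted 0.0269). It was 0.59 lower in resistant than in susceptible leaves (difference -0.59, -1.12 to -0.06; limma's adjusted p 0.798, unadjusted 0.0297). Without susceptible 27 h replicate 2, the array at 1.05, the differences were -0.34 for sun1-1 and -0.29 for resistant leaves, and the susceptible mean itself was 0.14. The sun1-1 difference was also -0.45 without sun1-1 27 h replicate 2 and -0.46 with the column of that array as deposited, while it was -0.84 without sun1-1 27 h replicate 1. The sun1-1 mean at 27 h, -0.20 over 3 arrays, was -0.018 with that column as deposited. With all arrays the susceptible mean was 0.44, with an adjusted p of 0.568 by limma and an unadjusted p of 0.0316. The arrays of the groups overlapped in both. Among all features 12.1% had an unadjusted p under 0.05 for sun1-1 minus susceptible at 27 h and 6.19% for resistant minus susceptible.

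At 3 h DHAR2 was 0.53 higher in sun1-1 than in resistant leaves (95% interval 0.0035 to 1.06; limma's adjusted p 0.761, unadjusted 0.0486). This was 0.44 without sun1-1 3 h replicate 3 and 0.32 without resistant 3 h replicate 1, and the arrays overlapped. At 9 h the 3 sun1-1 arrays, 0.025 to 0.51, lay above the 3 susceptible ones, -0.40 to -0.0065, as the arrays of 16.1% of 6492 features did one way or the other, and limma's adjusted p for this difference of 0.48 was 0.956. Over the mean of the 3 times sun1-1 stood 0.30 above resistant leaves (-0.0022 to 0.61; limma's adjusted p 0.993).

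The 2 clones of DHAR2 mostly went together, and differed most on the widest array. Clone A (spots 153593 and 154437) lay between -0.94 and 1.25 and clone B (spots 158381 and 160240) between -1.03 and 1.31, each on 30 arrays. Their rho was 0.68 over 30 arrays, with the same sign on 24, and 0.82 without sun1-1 3 h replicate 3, where clone A read 1.25 and clone B -0.49 from 1 spot each. On resistant 3 h replicate 1 they read -0.94 and -1.03, and on susceptible 27 h replicate 2 they read 0.80 and 1.31. On susceptible 27 h replicate 3 their signs differed, at -0.30 and 0.17. In susceptible leaves at 27 h clone A averaged 0.23 ± 0.55 and clone B 0.65 ± 0.59 (SD, n = 3), and in sun1-1 leaves at 3 h clone A averaged 0.50 ± 0.67 and clone B -0.098 ± 0.36. Without the widest array the sun1-1 means at 3 h were 0.12 for clone A and 0.10 for clone B. In that fit the 27 h differences from susceptible leaves were larger in clone B. For sun1-1 they were -0.44 in clone A and -0.86 in clone B (limma's unadjusted p 0.120 and 0.00874, adjusted 0.482 and 0.206). For resistant leaves they were -0.33 and -0.86 (limma's unadjusted p 0.208 and 0.00540, adjusted 0.802 and 0.616).

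Of 174 clone results 0 passed at an adjusted p under 0.05, 15 (8.62%) were under 0.05 before adjustment, and limma's smallest adjusted p was 0.249, that of DHAR clone A in sun1-1 leaves at 3 h, which is 1 without the widest array. Without that array the smallest was 0.206, that of DHAR2 clone B for sun1-1 minus susceptible at 27 h (-0.86, unadjusted p 0.00874). Among all clones the share called was 0% in 26 of the 29 comparisons, and 0.071%, 0.0357% and 0.091% for the mean of the 3 genotypes at 3 h, the same at 27 h and the mean of the 9 groups.

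**Figure D3:**
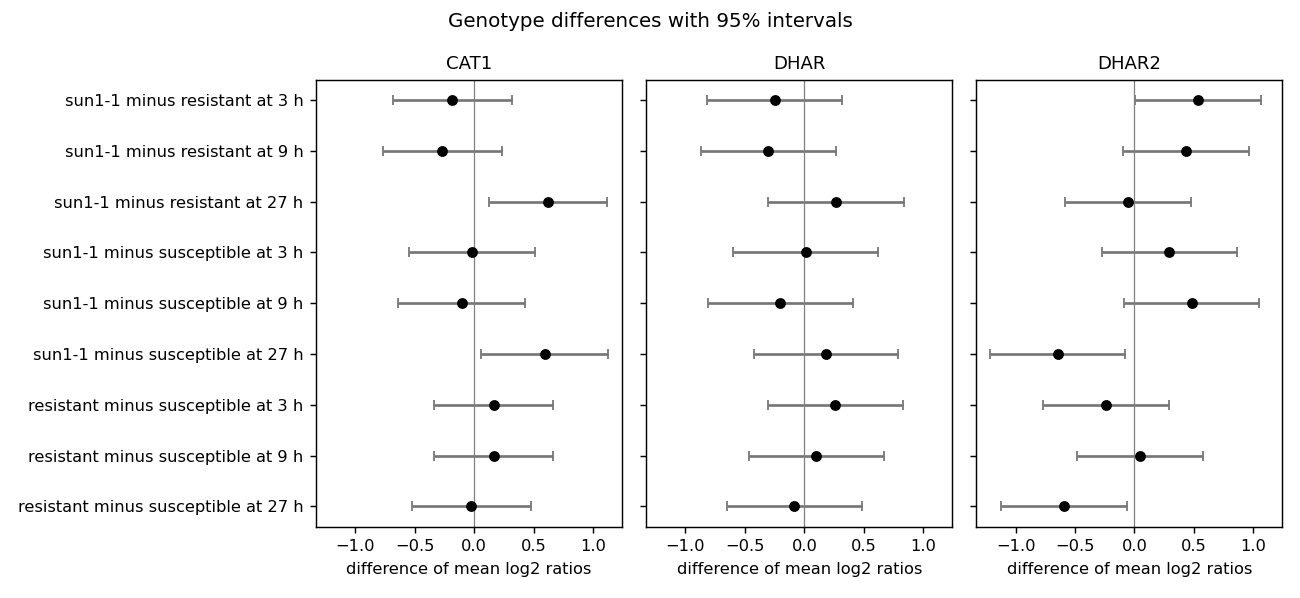
Differences between genotypes in the mean log2 ratio (horizontal axis, points) of CAT1, DHAR and DHAR2 at 3, 9 and 27 h, with 95% intervals as horizontal lines. For CAT1 the 2 differences of sun1-1 at 27 h, 0.62 and 0.59, have intervals above 0, for DHAR every interval spans 0, and for DHAR2 the 2 differences from susceptible leaves at 27 h, -0.65 and -0.59, have intervals below 0 while sun1-1 minus resistant at 3 h, 0.53, has one just above 0 (0.0035 to 1.06). None of the 27 passed the adjusted test.

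Across arrays CAT1 and DHAR varied together. Pearson's r was 0.48 over 30 arrays (permutation test, p = 0.00676, adjusted over the 3 gene pairs 0.0203) and Spearman's rho 0.50 (permutation p = 0.00586, adjusted 0.0176), and the genes had the same sign on 20 of 30 arrays. Without the 2 arrays farthest from the median of CAT1 r was 0.44, and without sun1-1 3 h replicate 3 it was 0.54 (adjusted permutation p = 0.00615). Within genotypes r was 0.34 in sun1-1 (n = 9), 0.48 in resistant (n = 12) and 0.74 in susceptible leaves (n = 9). By replicate number, n = 9 each, r was 0.72, 0.68 and -0.35 for numbers 1, 2 and 3, the last being 0.37 over 8 arrays without sun1-1 3 h replicate 3. Measured as deviations from the group means r was 0.42 (adjusted permutation p = 0.0678) and missed the threshold. Spearman's rho of these deviations was 0.45 (adjusted permutation p = 0.0407) and nominally passed it. Both nominally passed with CAT1 from clones A and B and DHAR from clone A, chosen after the data were seen. There r was 0.44 (adjusted permutation p = 0.0314) and rho 0.54 (adjusted permutation p = 0.00729). The permutations did not allow for the 9 group means taken out of the 30 values. The p-values of deviations are therefore too small, and a pass near the threshold is uncertain. Of 7750 pairs among the 125 genes with a value on every array 10.8% had a higher rho than CAT1 and DHAR. By clone, DHAR clone A had rho 0.61 with CAT1 clone A, 0.53 with clone B and -0.092 with clone C.

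The relation between the 2 dehydroascorbate reductases missed the threshold over all arrays. Between DHAR and DHAR2 r was -0.38 (permutation p = 0.0385, adjusted 0.0578) and rho -0.34 (permutation p = 0.0656, adjusted 0.0985), with opposite signs on 17 of 30 arrays. It was -0.45 without sun1-1 3 h replicate 3 (adjusted permutation p = 0.0193), -0.38 without the 2 arrays farthest from the median of DHAR (adjusted permutation p = 0.0458), -0.45 with DHAR from clone A alone (adjusted permutation p = 0.0338), and 0.40 among arrays of replicate number 3 (n = 9), or -0.034 there without that same array (n = 8). Within genotypes r was -0.38 in sun1-1, -0.20 in resistant and -0.60 in susceptible leaves. CAT1 and DHAR2 gave r = -0.33 (permutation p = 0.0783, unchanged by adjustment) and rho = -0.22 (permutation p = 0.233), with equal and opposite signs on 15 arrays each, and so missed the threshold over all arrays. Pearson's r passed without the 2 arrays farthest from the median of CAT1 (r = -0.40, adjusted permutation p = 0.0343), where rho was -0.22 (adjusted permutation p = 0.254), and with CAT1 from clones A and B (r = -0.38, adjusted permutation p = 0.0398). Within genotypes r was -0.38, -0.12 and -0.62 in sun1-1, resistant and susceptible leaves. Of the 7750 pairs among genes with a value on every array, 9.99% had a lower rho than DHAR and DHAR2. A rho lower than that of CAT1 and DHAR2 was found for 18.1%.

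**Figure D4:**
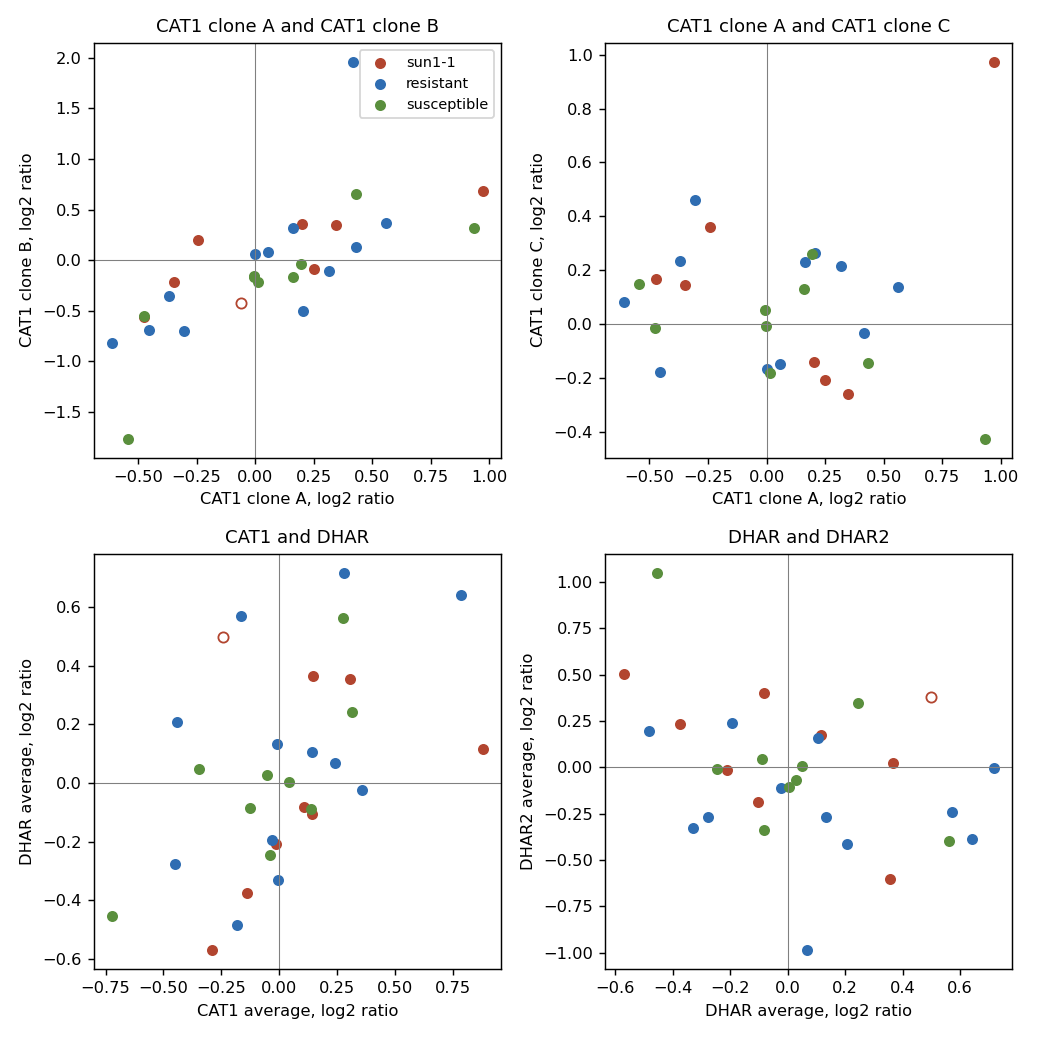
Log2 ratios on single arrays (1 point each, coloured by genotype, the open circle being sun1-1 3 h replicate 3 where both values exist). The upper panels set CAT1 clone A (horizontal axis) against clones B and C (vertical axes), where rho is 0.83 and -0.16, and the lower panels set the CAT1 average against DHAR and the DHAR average against DHAR2, where r is 0.48 and -0.38.

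Among 334 genes that shared at least 20 arrays, those most like CAT1 by rho of gene averages were LOC102577573 (0.62, 23 arrays), LOC102577800 (0.60, 27 arrays) and LOC102588776 (0.59, 29 arrays), with DHAR at rank 9 as the first named symbol. DHAR was most like LOC102586427 (0.62, 30 arrays), LOC102588286 (0.56, 24 arrays) and KST1 (0.55, 24 arrays), a symbol used in potato for a potassium channel of guard cells, with CAT1 at rank 7. DHAR2 was most like LOC102603136 (0.65, 26 arrays), LOC102577922 (0.62, 25 arrays) and THF1 (0.62, 29 arrays), a symbol used for a protein of thylakoid formation. LOC102586427, first for DHAR, was last of the 334 for DHAR2 with rho -0.62 over 30 arrays. These are descriptions of the arrays and carry no test.

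Other genes of the pathway were scarce among the annotated symbols. Of 72 symbols listed for the removal and production of reactive oxygen, ascorbate and glutathione, 2 besides the members were found as single symbols in the platform annotation. That annotation covers 905 of the 15360 clone pairs, so clones of the other listed genes may be on the arrays without a symbol. AOX, the symbol of alternative oxidase, had a value on 6 arrays and could not be tested. GRX2, a glutaredoxin, had group means between -0.24 and 0.39 and none of its results had an unadjusted p under 0.05. Of 25 symbols listed for photorespiration and peroxisomes 1 was there, SHMT, serine hydroxymethyltransferase, with means between -0.31 and 0.25 and its lowest limma p, 0.0110 unadjusted and 0.683 adjusted, for resistant minus susceptible at 9 h (-0.55). PSBR ranged between -0.72 in sun1-1 leaves at 3 h, or -0.23 there without the widest array, and 0.45, with a lowest adjusted p of 0.422 by limma. None of these genes passed in any comparison (0 of 78 results called by limma, 4 at an unadjusted p under 0.05), and most enzymes that neighbour catalase and dehydroascorbate reductase in the cycle were not analysed here.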

How the data were processed

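On each of 30 2-colour arrays a TMV-treated tomato leaf sample was set against a mock-treated one. Values were deposited as log2 ratios, with array medians between -0.013 and 0.07. The submitters' processing notes name limma. How the arrays were scanned, corrected and normalized, and why 65.0% of cells are empty, is not given in the sources used here. Base 2 follows from the values, since each of the 5154 values of -1 or less matches, within 0.002, the log2 of a ratio rounded to 2 decimals.

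The 32448 spots were paired by a fixed layout into 15360 clones and averaged. Clones of 1 symbol were averaged into genes, which with the other clones gave 12212 features. The column of sun1-1 27 h replicate 2 was moved by 1 row: the mean size of its correlations with the rest was 0.172 after the move and 0.0115 before, and no move improved any of the 29 others. The number of arrays limits the precision.

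A model with 1 mean for each of 9 groups was fitted to the whole table with limma 3.58.1 in R 4.3.3 (prior degrees of freedom 5.66, prior SD 0.32), needing 2 arrays in each group compared, with Benjamini-Hochberg adjustment within a comparison. The tests were checked on simulated data with independent arrays of equal spread and shifts larger than any group mean of the members. That check does not cover arrays that differ in spread or correlate with each other. All groups share 1 spread per feature, although the SDs of the arrays ran between 0.22 and 1.35. The p-values measure the spread between arrays, in which plants, labelling and hybridization cannot be told apart. Resistant replicate 4 at 9 and at 27 h has a TMV-channel protocol that names 3 and 9 h, and was grouped by title. Correlations used 100000 permutations, two-sided.

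Members, lists and tests were chosen with earlier results of these data known. Every member clone is named, with the 3 symbols most alike by rho, the first symbol that is not a LOC number, and all listed genes found as single symbols in the platform annotation. Alternatives changed centring, scaling, array weights, averaging of clones and spots, empty cells, the minimum number of arrays, the features tested, the displaced column, the replicate number as a block, and the arrays used, single arrays left out among them. No sequences of the clones or genes are used here, and no coordinates.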

Additional observations from a re-analysis of the deposited data

Results flagged for a closer look

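DHAR in resistant leaves at 3 h read 0.57 on replicate 2, far from the other 3 arrays of the group at 0.067, 0.10 and 0.13. Its distance from the nearest of them exceeded Dixon's 95% limit for 4 samples, 0.829 of the range. Of 9 groups of 4 arrays examined in this way, 3 for each gene, 1 gave such a value, and chance gives it in about 1 of 20 groups. Without replicate 2 the group mean was 0.10 in place of 0.22, and neither value was called by limma. The 0.067 of replicate 1 is the average of clones A, B and C at 0.32, 0.36 and -0.47. Clones B and C had no value on the other arrays of the group. Clone A alone read 0.32, 0.57, 0.10 and 0.13 on replicates 1 to 4, and Dixon's limit was not tested on it.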

How the results depend on the processing

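No member result was called by limma at an adjusted p under 0.05 with the settings of the report or with any of 23 others (0 of 87 in each). The lowest adjusted p in any setting was 0.0998, for DHAR2 in sun1-1 leaves at 27 h (-0.42) with array quality weights. Replicates 1 to 3 of that group had weights of 0.19, 3.11 and 1.97, and DHAR2 read 0.17, -0.60 and -0.19 on them. Replicate 2, whose column was moved, had the highest weight of all arrays. With the replicate number as a block (replicate block) 0 results were called too. No pairing of the arrays by number was seen: over 626 features the deviations of the 111 same-numbered pairs had a mean r of -0.025, with 38 above 0.1, against 0.0086 for the 288 other pairs, and 8 of 30 arrays correlated best with one of their own number. A mean near 0 can hide correlations of either sign, so pairing is not excluded. Of 1725 values in the other settings 103 changed sign, none of them with a value above 0.24 in the report's setting, and the cause was not tested. DHAR in sun1-1 leaves at 3 h was 0.0030 with the replicate block. CAT1 was 0.022 in sun1-1 leaves at 9 h with the median of the clones and -0.041 in resistant leaves at 3 h from clones A and B, and DHAR was -0.023 in susceptible leaves at 9 h with array weights. The mean of the 9 groups changed sign for DHAR to -0.0039 with scaled arrays, -0.0018 with array weights, -0.053 with clone A alone, whether as the clone with most arrays or in the set chosen after the data were seen, and -0.062 with clones that had both spots. For DHAR2 it was 0.0073 with the displaced column as deposited and 0.0087 without that array. Leaving out each replicate number in turn, in every group at once, moved sun1-1 values between -0.29 and 0.14 for DHAR at 3 h, -0.093 and 0.12 for CAT1 at 9 h, and -0.33 and 0.14 for DHAR at 9 h. It moved CAT1 between -0.011 and 0.12 in resistant leaves at 3 h. In susceptible leaves the ranges were -0.24 to 0.0043 for CAT1 and -0.16 to 0.025 for DHAR2 at 3 h, -0.00058 to 0.16 for CAT1 and -0.12 to 0.28 for DHAR at 9 h, and -0.39 to 0.13 for CAT1 and -0.21 to 0.14 for DHAR at 27 h. For the mean of the 9 groups they were -0.029 to 0.065 for CAT1, -0.016 to 0.076 for DHAR and -0.047 to 0.011 for DHAR2, that range including single arrays left out after the data were seen.

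Pearson's r of CAT1 and DHAR was 0.418 for deviations from the group means, where it missed the threshold, and -0.349 among arrays of replicate number 3. For those deviations rho, 0.447, nominally passed the threshold after adjustment, as did r, 0.441, with CAT1 from clones A and B and DHAR from clone A. For CAT1 and DHAR2, which missed it over all arrays, r was -0.402 without the 2 farthest arrays, -0.379 with CAT1 from clones A and B, and -0.394 for deviations with those clones, each past the threshold after adjustment, and 0.120 among arrays of replicate number 3 without sun1-1 3 h replicate 3. For DHAR and DHAR2 it was -0.381 without the 2 farthest arrays, -0.454 without sun1-1 3 h replicate 3 (and -0.350, not past the threshold, without sun1-1 27 h replicate 2), -0.452 with DHAR from clone A, -0.395 for deviations and -0.491 without that array with the same clone, each past the threshold, and 0.402 among arrays of replicate number 3. The choice of clones and the subsets by genotype or replicate number were added after the data were seen.

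Groups of 3 or 4 arrays, spots without a value, the unknown numerator and the absence of exchanged dyes limit these results. The 95% intervals of the group means reached 0.33 to 0.43 to each side. DHAR rests on 1 clone on most arrays, and the clones of CAT1 disagree.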
